A study of Mus musculus with 10 samples.

Results

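Interferon-induced genes were examined in 10 bulk RNA-seq libraries from mouse tumours, as a list of 49 genes that cells are known to switch on after exposure to interferons. The genes were taken by symbol from a table of 55487 gene rows, with the condition that a gene reached 1 TPM (an RNA abundance normalised for transcript length and for the total of its library) in at least 5 libraries. All 49 had a row and all 49 met this condition, among 13930 genes that did. The list was split by gene family into 10 type I-leaning genes (the Ifit and Oas families and Isg15), 6 gamma-leaning genes (the Gbp family, Irgm1 and Igtp) and 33 other members. The S452A group held 5 libraries from mice in which Ser452 of Ptpn22, the gene of the phosphatase Pep, is changed to alanine, and the WT group held 5 libraries from mice with unchanged Pep. All mice were 8 weeks old when MC38 cells, a mouse colon carcinoma line, were injected. Tumours were taken 18 days later and digested with collagenase, and cells were sorted as CD8+ T cells. Each library is labelled as a separate mouse. The labels name neither strain nor sex, nor whether every cell of the mice carried the change. The series text also writes the change as S425A.

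Interferons are secreted signals. Type I interferons, among them interferon beta, are made by cells on sensing foreign or misplaced nucleic acid. They bind a receptor made of Ifnar1 and Ifnar2. They act mainly through a complex that contains Stat2 and Irf9 and binds a DNA element called ISRE. Interferon gamma, made chiefly by T and NK cells, binds Ifngr1 and Ifngr2 and acts mainly through an element called GAS. Many target genes answer to both. In myeloid cells, Ptpn22 is known to promote type I interferon production after Toll-like receptor stimulation.

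The label CD8+ T cells was checked against defining markers. The summed level of 8 T cell genes was 15.0 to 135 TPM in S452A and 12.1 to 126 TPM in WT libraries, whereas the sum of 8 macrophage genes was 17341 to 22930 TPM in S452A and 16486 to 23049 TPM in WT libraries. The interferon-induced genes were thus measured in RNA in which macrophage transcripts far outnumbered T cell transcripts in both genotypes. Each genotype had libraries at both ends of the T cell range. The sum of 7 fibroblast genes, all of which passed the expression filter, was 84.1 to 239 TPM in S452A and 185 to 356 TPM in WT libraries, and its part in the results was not tested. In bulk RNA, fewer cells of a type and less RNA per cell cannot be told apart.

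Promoter sequences of the genes on which the class split rests were searched for the elements through which the classes are known to be induced. RefSeq windows on GRCm38.p6, from 250 bases before to 50 bases after the annotated start, were found for 40 of the 49 members. An ISRE-like match was GAAA, any 2 bases and GAAA again, a GAS-like match was TTCNNNGAA, and both strands were searched. In the lines below, capitals mark these matches, each sequence is on the strand of its gene, and lower case marks the flanks. The type I-leaning genes Ifit1, Ifit3 and Isg15 are shown for their clustered ISRE-like matches.
Ifit1, chr19:34640765-34640833: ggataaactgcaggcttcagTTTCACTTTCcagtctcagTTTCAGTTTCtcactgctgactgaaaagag
Ifit3, chr19:34583353-34583436: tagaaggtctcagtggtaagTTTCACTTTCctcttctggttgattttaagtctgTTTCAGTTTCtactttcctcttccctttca
Isg15, chr4:156200855-156200916: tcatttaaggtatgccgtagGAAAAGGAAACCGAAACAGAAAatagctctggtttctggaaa
The gamma-leaning genes Gbp2, Irgm1 and Igtp are shown for the same element close to the RefSeq start, beside a GAS-like match in Igtp.
Gbp2, chr3:142620584-142620633: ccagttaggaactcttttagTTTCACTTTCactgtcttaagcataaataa
Irgm1, chr11:48871415-48871470: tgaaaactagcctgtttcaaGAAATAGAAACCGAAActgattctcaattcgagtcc
Igtp, chr11:58199491-58199551: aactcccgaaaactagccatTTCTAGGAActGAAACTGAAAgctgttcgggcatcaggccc
Gbp5, whose level across libraries ran with the type I-leaning genes, is shown for its ISRE-like match and for the GAS-like match nearest its start, and Irf1, a transcription factor of the gamma response, for its GAS-like match.
Gbp5, chr3:142496749-142496798: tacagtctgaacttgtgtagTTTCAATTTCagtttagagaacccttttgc
Gbp5, chr3:142496862-142496910: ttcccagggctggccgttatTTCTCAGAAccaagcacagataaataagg
Irf1, chr11:53769904-53769952: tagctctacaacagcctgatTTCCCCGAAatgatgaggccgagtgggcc

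Isg15 and Irgm1 are on the minus strand of the build and the other genes shown are on the plus strand. Each match is a match of letters and not a site shown to be used. Starts here are those of RefSeq, and the GENCODE gene positions given below can differ from them. The matches shown for Gbp2, Irgm1 and Gbp5 lie inside the genes as GENCODE places them. Isg15 carried 3 overlapping ISRE-like matches that began at -78, -72 and -66 from the start, Ifit1 had 2 at -104 and -85, and Irgm1 had 2 at -30 and -24. In Igtp the GAS-like match began at -45 and the ISRE-like match at -34. An ISRE-like match was present in 26 of the 40 members with a window (65.0%), against 3.99% of all 27025 genes with a window. By class it was in 6 of 9 type I-leaning, 6 of 6 gamma-leaning and 14 of 25 other members. A GAS-like match was present in 13 of the 40 (32.5%), against 9.55% of all genes, with 2 of 9 type I-leaning, 3 of 6 gamma-leaning and 8 of 25 other members. The 2 motifs overlapped each other in 2 members' windows. The windows of 9 members held neither set of letters: Oasl1, Oasl2, Irf7, Irf9, Ifi44, Ifi47, Ifi209, Xaf1 and Slfn2. Oas2, Mx1, Mx2, Usp18, Ifi204, Zbp1, Dhx58, Iigp1 and Parp14 had no window in the table.

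The interferon-induced genes were abundant in both genotypes. Their summed TPM made up 0.883% to 1.32% of the total in S452A and 0.885% to 1.08% in WT libraries. Mean TPM over the 10 libraries ranged from 9.91 for Tgtp1 to 1582 for Ifitm3, with a median of 91.1 TPM, against a median of 12.1 TPM over all genes tested. At 100 TPM or more were 21 of the 49 members, compared with 9.83% of all genes tested, and 3 members were under 20 TPM. Median level was 175 TPM in the type I-leaning, 48.0 TPM in the gamma-leaning and 94.7 TPM in the other members. Spread within a genotype had a median pooled SD of 0.26 on the log2(TPM + 1) scale for members and 0.30 for all genes tested. The members were more abundant than most genes, and their spread was not compared with genes of like level.

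No interferon-induced gene passed the test between genotypes. Genotype was compared with limma on log2(TPM + 1), with p-values adjusted by the Benjamini-Hochberg method over all 13930 genes and a threshold of 0.05, and every difference below is S452A minus WT. It called 0 of 49 members, with a smallest adjusted p of 0.952 from limma, and it called 1 gene in all, or 0.00718%, the predicted gene Gm36079. At an unadjusted limma p under 0.05 there were 6 members, all higher in S452A, out of 49, whereas 4.74% of all genes reached that level in either direction and 2.01% were higher in S452A. These 6 were Ifit1, Gbp5, Ifi203, Ifi205, Ifi209 and Slfn5. The 2-sided exact permutation test over libraries, whose smallest possible p is 0.00794, gave a p under 0.05 for 2 members (4.08%), Ifi203 and Slfn5, against 4.46% of all genes. In 0 members did the S452A libraries all lie apart from the WT libraries, which was so for 0.646% of all genes. The difference was above 0 in 32 of 49 members, or 65.3%, against 46.6% of all genes. Its median was 0.08 on the log2 scale over the 49 members, 0.15 in the type I-leaning, 0.12 in the gamma-leaning and 0.05 in the other members, beside -0.02 over all genes. The medians leaned on single libraries. That of the 49 members was 0.03 without S452A library 5 or without WT library 1, and 0.16 without S452A library 1. The type I-leaning median was 0.24 without S452A library 1, 0.07 without S452A library 5 or WT library 1, and 0.02 without S452A library 4. The gamma-leaning median was 0.06 without S452A library 5 and 0.005 without WT library 1. A wider split, with 16 type I-leaning and 11 gamma-leaning genes, gave medians of 0.10 and 0.07 for the same classes. Slfn5 and any member named below outside the rule given with the methods were singled out after their values were seen.

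**Figure D1:**
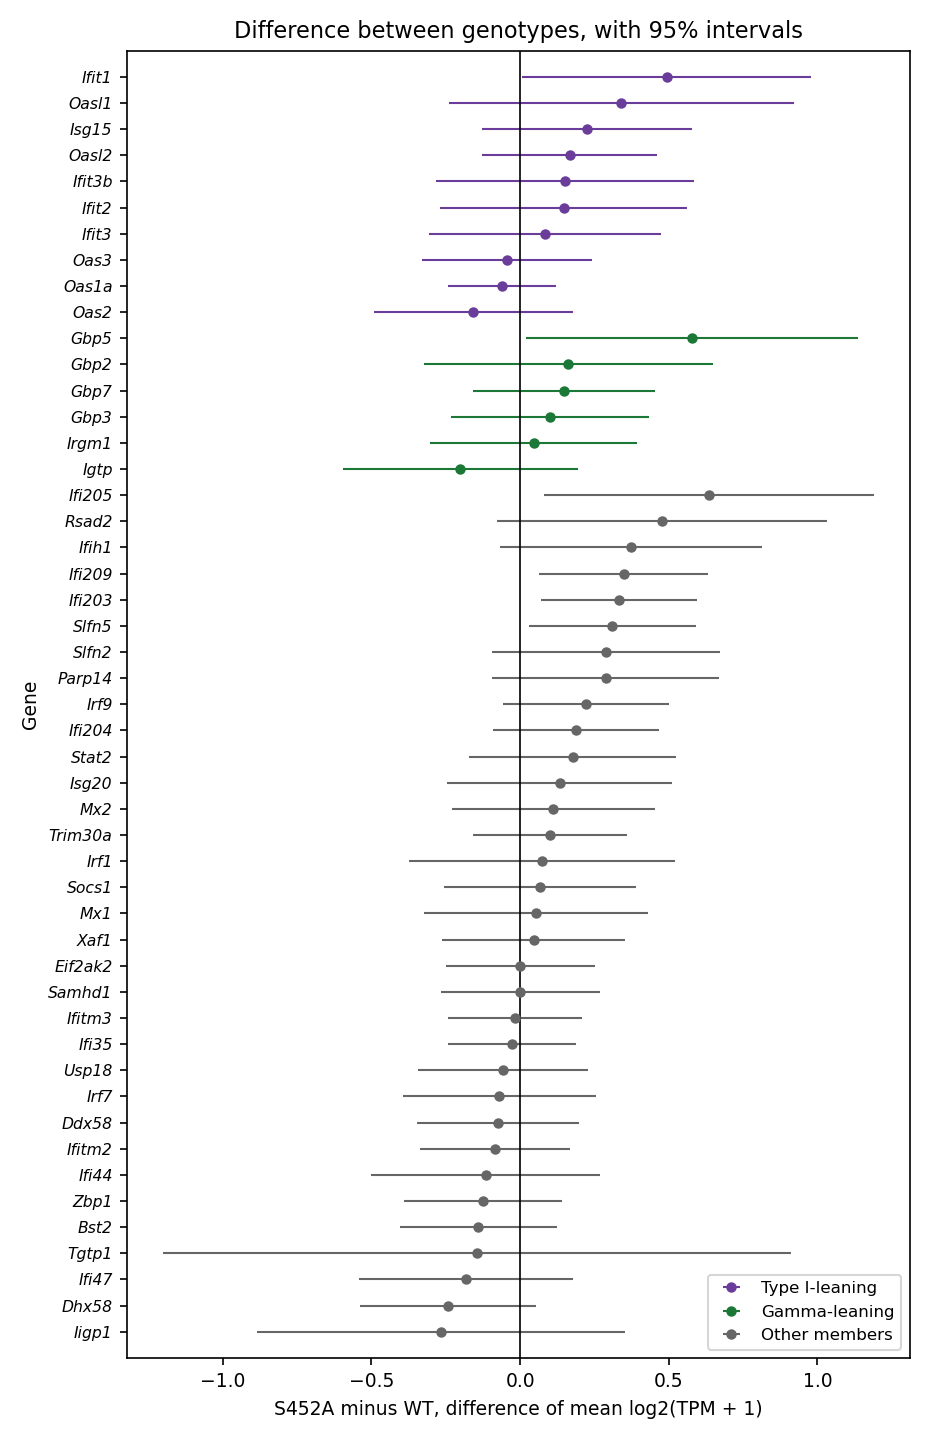
Difference in mean log2(TPM + 1), S452A minus WT, for the 49 interferon-induced genes (points) with 95% intervals from limma (lines), coloured by class and sorted within class. The interval of 6 genes lies above 0 before adjustment, that of 0 genes lies below it, and no gene has an adjusted p under 0.05.

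Among the type I-leaning genes, all 4 Ifit genes and Isg15 had a difference above 0, while 3 of the 5 Oas genes had a difference below 0. Ifit1 (ENSMUSG00000034459, GRCm38 chr19:34640871-34650009) encodes an RNA-binding protein that acts on viral RNA. Ifit1 was at 186, 162, 276, 342 and 197 TPM in S452A libraries 1 to 5, against 100.2, 187, 154, 185 and 187 TPM in WT libraries 1 to 5. S452A libraries 3 and 4 stood above every other library and WT library 1 stood lowest, while the remaining values of both genotypes mixed. Its difference was 0.49 on the log2 scale (95% interval 0.01 to 0.98), with an unadjusted limma p of 0.0475 and an exact permutation p of 0.103. Ifit3, a partner of the Ifit complexes, had a smaller difference. Ifit3 was at 249, 286, 383, 466 and 468 TPM in S452A libraries 1 to 5, against 292, 382, 339, 299 and 395 TPM in WT libraries 1 to 5. The groups overlapped, its difference was 0.08 on the log2 scale (95% interval -0.31 to 0.47), and it turned to -0.01 without S452A library 4 or library 5. Reads of Ifit3 and Ifit3b cannot be assigned with certainty, since their transcripts are 97.8% identical.

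Isg15 (ENSMUSG00000035692, GRCm38 chr4:156199424-156200818), a ubiquitin-like protein joined to other proteins after interferon exposure, was the most abundant type I-leaning gene. Isg15 was at 1067, 1177, 1759, 1798 and 1523.5 TPM in S452A libraries 1 to 5, against 957, 1399, 1202, 1272 and 1355 TPM in WT libraries 1 to 5. S452A libraries 3, 4 and 5 lay above all WT libraries, but S452A libraries 1 and 2 lay below 4 of the 5 WT libraries. The difference was 0.22 on the log2 scale (95% interval -0.13 to 0.58), and it was 0.14 without WT library 1. Oasl1 is an Oas-like protein without synthetase activity that limits Irf7 translation in the mouse. Oasl1 was at 353, 297, 642, 776 and 372 TPM in S452A libraries 1 to 5, against 230.2, 467, 364, 411 and 372 TPM in WT libraries 1 to 5. Again S452A libraries 3 and 4 were highest and WT library 1 lowest, with a difference of 0.34 on the log2 scale (95% interval -0.24 to 0.92) that was 0.15 without S452A library 4. The oligoadenylate synthetases Oas1a, Oas2 and Oas3, which make the activator of RNase L, had differences of -0.06, -0.16 and -0.04. Oas1a was the steadiest of the 49 between its lowest and highest library, at 104 to 124 TPM in S452A and 113 to 127 TPM in WT libraries, though its transcripts are 97.6% identical to those of Oas1g. Oasl2 had a difference of 0.17, Ifit2 of 0.15 and Ifit3b of 0.15, each with a 95% interval that spanned 0.

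The gamma-leaning genes encode interferon-inducible GTPases that act at the membranes around intracellular pathogens. Gbp2 (ENSMUSG00000028270, GRCm38 chr3:142620602-142638008) is a guanylate-binding protein. Gbp2 was at 57.8, 91.4, 93.5, 52.9 and 87.6 TPM in S452A libraries 1 to 5, against 41.1, 93.9, 71.5, 64.6 and 72.5 TPM in WT libraries 1 to 5. S452A libraries 1 and 4 and WT library 1 were lowest and the other values mixed. Its difference was 0.16 on the log2 scale (95% interval -0.32 to 0.65), and it was -0.01 without WT library 1. Gbp5, a guanylate-binding protein linked to inflammasome assembly in mice, had another order of libraries. Gbp5 was at 49.2, 38.4, 70.7, 70.15 and 43.9 TPM in S452A libraries 1 to 5, against 18.5, 48.2, 39.2, 46.9 and 32.0 TPM in WT libraries 1 to 5. S452A libraries 3 and 4, of which library 4 was among the lowest for Gbp2, were highest for Gbp5. The difference was 0.58 on the log2 scale (95% interval 0.02 to 1.14), with an unadjusted limma p of 0.0436 and an exact permutation p of 0.0952, and it was 0.36 without WT library 1. Gbp7 was low. Gbp7 was at 17.05, 18.7, 19.5, 13.85 and 16.4 TPM in S452A libraries 1 to 5, against 12.3, 17.4, 14.4, 17.9 and 14.8 TPM in WT libraries 1 to 5. The groups overlapped and its difference was 0.15 on the log2 scale (95% interval -0.16 to 0.46), or 0.077 without WT library 1. A shorter transcript of Gm43802 is 100% identical to part of Gbp7, so the reads of Gbp7 are also uncertain.

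Irgm1 (ENSMUSG00000046879, GRCm38 chr11:48861968-48871683) is a regulatory member of the immunity-related GTPases, and Igtp (Irgm3) is another. Irgm1 was at 66.8, 96.1, 111.5, 79.1 and 112 TPM in S452A libraries 1 to 5, against 68.3, 90.8, 97.8, 87.6 and 102 TPM in WT libraries 1 to 5. S452A library 1 and WT library 1 were lowest, and the difference was 0.05 on the log2 scale (95% interval -0.30 to 0.39). It turned negative without S452A library 3, S452A library 5 or WT library 1, with values of -0.03, -0.03 and -0.05. Igtp was at 34.1, 48.5, 53.25, 34.1 and 60.3 TPM in S452A libraries 1 to 5, against 42.3, 52.55, 68.8, 50.3 and 47.9 TPM in WT libraries 1 to 5. For Igtp, S452A libraries 1 and 4 were lowest and WT library 3 highest, and the difference was -0.20 on the log2 scale (95% interval -0.60 to 0.19), with -0.31 without S452A library 5 and -0.10 without WT library 3. Gbp3 had a difference of 0.10. Ifi47, Iigp1 and Tgtp1, GTPases of the same family, sat among the other members and had differences of -0.18, -0.27 and -0.15, with intervals that spanned 0. Tgtp1 varied most of all, from 1.98 TPM in S452A library 4 to 17.5 TPM in S452A library 5, and its transcripts are 99.8% identical to those of Tgtp2, so that its share of reads is uncertain.

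Transcription factors of the pathway were not separated by genotype. Irf7 (ENSMUSG00000025498, GRCm38 chr7:141262706-141266481) drives the interferon alpha genes and amplifies the type I response. Irf7 was at 456, 553, 696, 486 and 788 TPM in S452A libraries 1 to 5, against 534, 672, 654, 639 and 572 TPM in WT libraries 1 to 5. The highest and the lowest value both came from S452A libraries, 5 and 1. Its difference was -0.07 on the log2 scale (95% interval -0.39 to 0.25), and it turned to 0.017 without S452A library 1. Stat2 and Irf9 are parts of the complex that carries the type I signal. Stat2 was at 58.6, 74.9, 89.9, 96.7 and 103 TPM in S452A libraries 1 to 5, against 66.6, 87.5, 83.6, 69.9 and 62.3 TPM in WT libraries 1 to 5. S452A libraries 3, 4 and 5 were above every WT library and S452A library 1 was below every WT library. The difference was 0.18 on the log2 scale (95% interval -0.17 to 0.52) for Stat2, with 0.30 when S452A library 1 and 0.099 when S452A library 5 was left out, and 0.22 for Irf9, whose interval spanned 0. Irf1 is a transcription factor of the gamma response. Irf1 was at 124, 155, 181, 175 and 138 TPM in S452A libraries 1 to 5, against 85.4, 206, 163, 171 and 132 TPM in WT libraries 1 to 5. WT libraries gave both its lowest and its highest value. The difference was 0.07 on the log2 scale (95% interval -0.37 to 0.52), and without WT library 1 it was -0.12.

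The feedback inhibitors among the members, Usp18 and Socs1, had small differences. Of 9 inhibitors outside the list, differences ran from -0.27 for Ptpn6 to 0.30 for Usp25, with 0.13 for Socs3, and none passed the adjusted test. Usp18, a protease that removes Isg15 from proteins and also blocks signalling at Ifnar2, is a standard readout of type I exposure. Usp18 was at 61.1, 76.5, 99.6, 86.7 and 96.6 TPM in S452A libraries 1 to 5, against 82.7, 81.15, 95.9, 87.6 and 85.0 TPM in WT libraries 1 to 5. S452A library 1 was lowest, S452A library 3 highest, and the difference was -0.06 on the log2 scale (95% interval -0.34 to 0.23), which turned to 0.050 without S452A library 1. Socs1, which inhibits Janus kinases, was among the least abundant members. Socs1 was at 9.22, 12.5, 11.2, 11.9 and 13.4 TPM in S452A libraries 1 to 5, against 12.3, 9.25, 12.3, 12.4 and 9.19 TPM in WT libraries 1 to 5. The groups overlapped throughout, with a difference of 0.07 on the log2 scale (95% interval -0.26 to 0.39) that ran from 0.0071 without WT library 5 to 0.14 without S452A library 1.

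The p200 family, proteins related to the DNA sensor Aim2, had a difference above 0 in all 4 members listed, with a median of 0.34, and none passed the adjusted test. All 3 named here lie on chromosome 1 within a stretch of neighbouring family genes. Ifi205 (ENSMUSG00000054203, GRCm38 chr1:174011998-174031810) had the widest difference of the 49. Ifi205 was at 273, 287, 610.4, 479.7 and 350.4 TPM in S452A libraries 1 to 5, against 148, 262, 259, 362 and 243 TPM in WT libraries 1 to 5. S452A libraries 3 and 4 were highest, WT library 1 was lowest, and WT library 4 exceeded 3 S452A libraries. The difference was 0.64 on the log2 scale (95% interval 0.08 to 1.19), with an unadjusted limma p of 0.0281 and an exact permutation p of 0.0556. Ifi203 (ENSMUSG00000039997, GRCm38 chr1:173920407-173942672) was more even. Ifi203 was at 97.7, 108, 138, 140.5 and 111 TPM in S452A libraries 1 to 5, against 84.8, 90.6, 89.7, 95.4 and 108 TPM in WT libraries 1 to 5. S452A libraries 2 to 5 lay above every WT library, and S452A library 1 lay below WT library 5. The difference was 0.33 on the log2 scale (95% interval 0.07 to 0.60), with an unadjusted limma p of 0.0170 and an exact permutation p of 0.0159. Ifi209 (ENSMUSG00000043263, GRCm38 chr1:173630917-173647928) overlapped in its lower S452A libraries. Ifi209 was at 115, 116, 179, 145 and 153 TPM in S452A libraries 1 to 5, against 101, 113, 98.2, 117 and 119 TPM in WT libraries 1 to 5. S452A libraries 3, 4 and 5 lay above every WT library. The difference was 0.35 on the log2 scale (95% interval 0.06 to 0.63), with an unadjusted limma p of 0.0205 and an exact permutation p of 0.0556. Ifi204 had a difference of 0.19. Transcripts of Ifi203 share 96.1% identity with Mndal and those of Ifi209 share 96.2% with Ifi214, so reads of these relatives may be divided between genes. Of 7 family genes outside the list, Ifi207 had a difference of 0.31, Ifi211 of 0.26, Ifi206 of 0.13, Mndal of 0.08, Ifi214 of 0.03, Ifi213 of 0.01 and Ifi208 of -0.04, and none passed the adjusted test.

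Antiviral effectors included the most abundant member. Ifitm3 encodes a membrane protein that hinders fusion of virus with the cell. Ifitm3 was at 1338, 1612, 1701, 1407 and 1827 TPM in S452A libraries 1 to 5, against 1572, 1452, 1722, 1640.2 and 1552 TPM in WT libraries 1 to 5. The groups overlapped throughout, and the difference was -0.02 on the log2 scale (95% interval -0.24 to 0.21), which turned to 0.040 without S452A library 1. Bst2 encodes tetherin, which holds budding virus at the cell surface. Bst2 was at 641, 988, 882, 924 and 906 TPM in S452A libraries 1 to 5, against 991, 969, 1053, 876 and 859 TPM in WT libraries 1 to 5. S452A library 1 was the single low value, and the difference was -0.14 on the log2 scale (95% interval -0.40 to 0.12), or -0.035 without that library. Slfn2, a Schlafen protein needed for T cell quiescence in mice, was also among the abundant members. Slfn2 was at 939, 837, 1608, 1415 and 1117 TPM in S452A libraries 1 to 5, against 819.9, 955, 824, 1169 and 972 TPM in WT libraries 1 to 5. S452A libraries 3 and 4 were highest and its difference was 0.29 on the log2 scale (95% interval -0.09 to 0.67), or 0.17 without S452A library 3. Rsad2, the radical enzyme viperin, had a difference of 0.48 and the other effectors of this role lay between -0.14 and 0.13. Of the RNA sensors, Ifih1 (MDA5) had a difference of 0.37, Ddx58 (RIG-I) of -0.07 and Dhx58 of -0.24, and each 95% interval spanned 0.

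**Figure D2:**
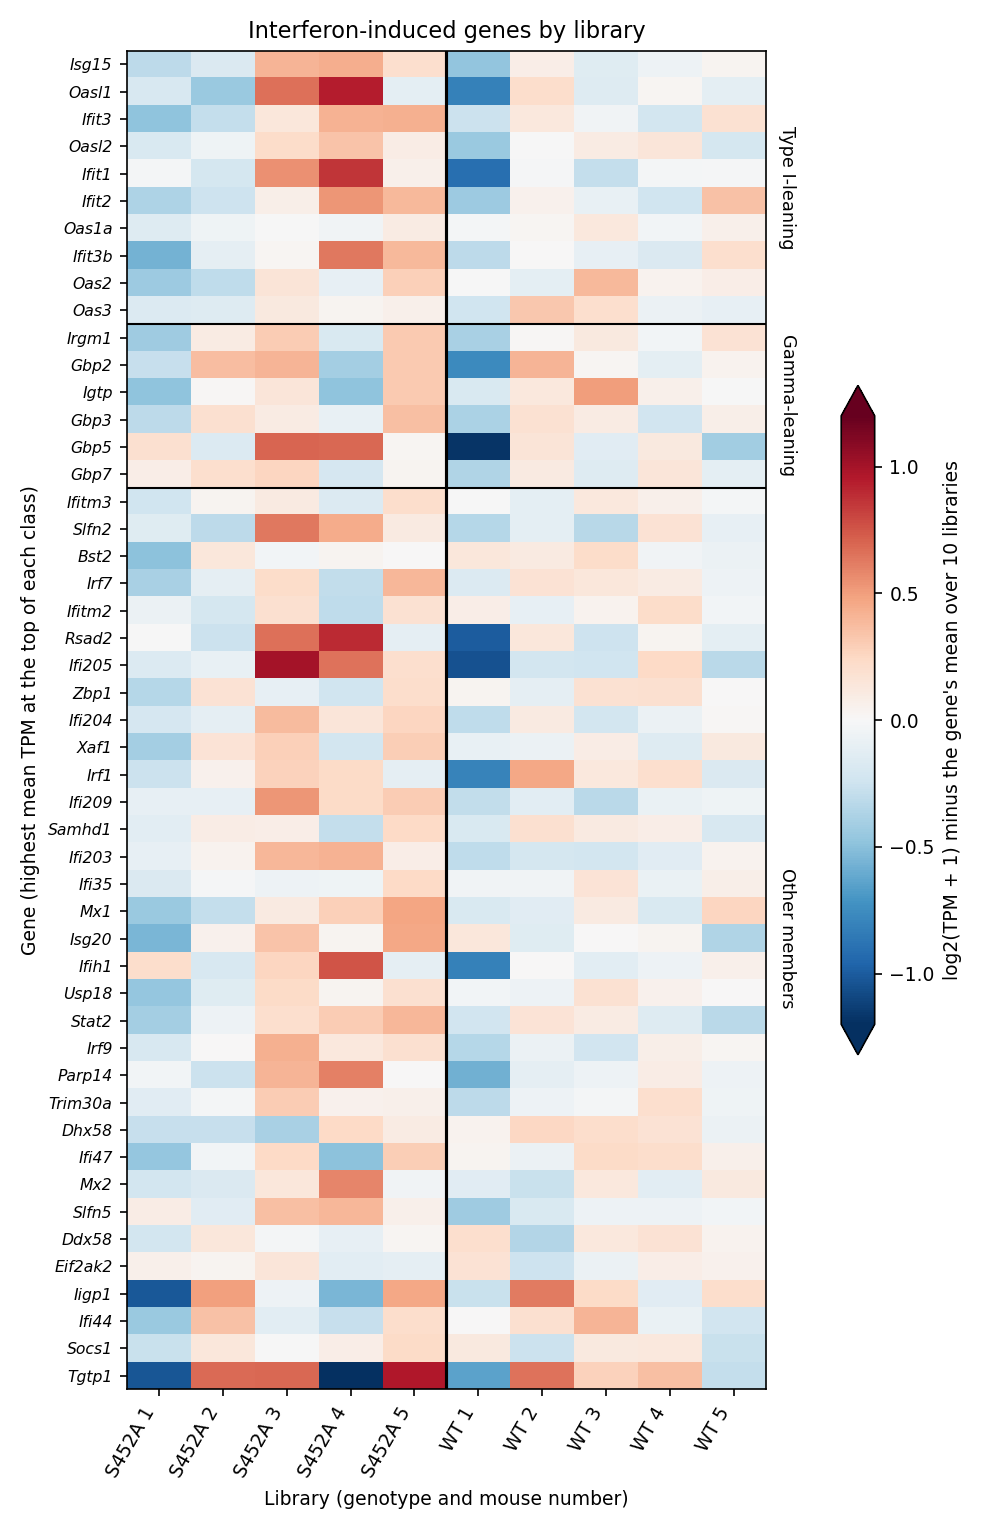
Colour gives log2(TPM + 1) of each interferon-induced gene (rows, by class) in each library (columns, S452A left of WT), minus that gene's mean over the 10 libraries. WT library 1 holds the lowest value of 21 genes and S452A library 1 that of 18, S452A library 4 is high for Ifit1, Oasl1 and Rsad2 and low for Igtp, Ifi47 and Tgtp1, and no row divides cleanly at the line between genotypes.

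Single libraries moved many members at once. WT library 1 held the lowest value of 21 members and S452A library 1 that of 18. The highest value came from S452A library 5 for 15 members, from S452A library 4 for 12 and from S452A library 3 for 9. Averaged over its genes as log2(TPM + 1), the type I-leaning class was at 7.03, 7.12, 7.56, 7.73 and 7.51 in S452A libraries 1 to 5 and 6.93, 7.39, 7.32, 7.26 and 7.37 in WT libraries 1 to 5. Its mean was 7.39 ± 0.30 in S452A and 7.25 ± 0.19 in WT libraries (SD, n = 5 each). The gamma-leaning class was at 5.36, 5.69, 5.89, 5.45 and 5.79 in S452A libraries 1 to 5 and 5.02, 5.73, 5.64, 5.56 and 5.52 in WT libraries 1 to 5. Its mean was 5.64 ± 0.22 in S452A and 5.50 ± 0.28 in WT libraries (SD, n = 5 each). For each class the difference between genotypes was smaller than the SD within either genotype.

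The balance of the 2 classes averaged nearly the same in both genotypes. The type I-leaning mean minus the gamma-leaning mean, a quantity that a common scaling of a library leaves nearly unchanged, was 1.67, 1.43, 1.67, 2.27 and 1.72 in S452A libraries 1 to 5 and 1.91, 1.66, 1.68, 1.70 and 1.84 in WT libraries 1 to 5. It averaged 1.75 ± 0.31 in S452A and 1.76 ± 0.11 in WT libraries (SD, n = 5 each), a difference of -0.005. The S452A libraries held both extremes, the widest gap in library 4 and the narrowest in library 2, and without S452A library 4 the difference was -0.13. The wider split gave 1.92 ± 0.36 in S452A and 1.85 ± 0.12 in WT libraries, a difference of 0.07.

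**Figure D3:**
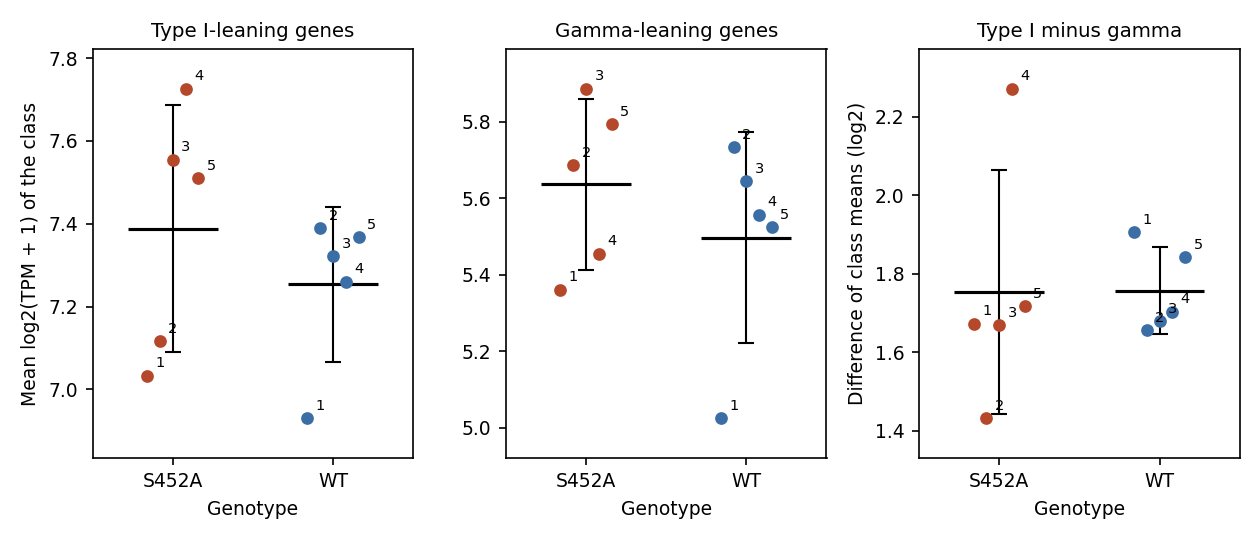
Mean log2(TPM + 1) of the 10 type I-leaning genes (left), of the 6 gamma-leaning genes (middle) and their difference (right) in each library, S452A left of WT, with mouse numbers at the points. Thick lines are means and bars are SD (n = 5 each). S452A library 4 has the highest type I-leaning mean (7.73) and the widest gap (2.27), and WT library 1 has the lowest mean of both classes (6.93 and 5.02).

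The members did not vary as a single block. Correlations between members across the 10 libraries, which share libraries and scaling and are given as a description, had a median of 0.56 among pairs of type I-leaning genes, 0.57 among pairs of gamma-leaning genes and 0.38 between the classes. Single pairs ranged widely, from -0.10 to 0.95, from -0.09 to 0.87 and from -0.23 to 0.92 in the same order. The type I-leaning pairs include the near-identical Ifit3 and Ifit3b. The wider split gave medians of 0.54, 0.45 and 0.31. The median was 0.37 over all member pairs and 0.01 over pairs of all genes tested. Gbp5 crossed the split, with r = 0.73 to the type I-leaning mean and r = 0.33 to the mean of the other gamma-leaning genes. Oas1a and Oas2 were the type I-leaning genes least like the rest of their class, at r = 0.36 and r = 0.33. Outside the list, the genes whose levels ran closest to the type I-leaning mean were Gdap10, Noct, P2rx4, Htr2b and Tmem171 (r from 0.91 to 0.94), and those closest to the gamma-leaning mean were Gbp6, Cd200r4, Gm12577, Slamf8 and Trip4 (r from 0.92 to 0.96). Each set is the top 5 of all tested genes outside the list, over only 10 libraries. Whether these r exceed what such a ranking gives by chance was not tested.

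Of the ligands, interferon beta mRNA was plentiful and interferon gamma mRNA was scarce. Ifnb1 (ENSMUSG00000048806, GRCm38 chr4:88522025-88522774) encodes interferon beta. Ifnb1 was at 139, 94.9, 161, 276 and 155 TPM in S452A libraries 1 to 5, against 63.3, 119, 94.1, 96.55 and 142 TPM in WT libraries 1 to 5. S452A library 4 was highest and WT library 1 lowest. S452A libraries 3 and 5 also lay above every WT library, while S452A libraries 1 and 2 lay below WT library 5. Its difference was 0.64 on the log2 scale (95% interval 0.07 to 1.21), with an unadjusted limma p of 0.0319, an adjusted p of 0.952 and an exact permutation p of 0.0794. Ifng encodes interferon gamma. Ifng was at 0.13, 1.66, 8.91, 0.55 and 2.43 TPM in S452A libraries 1 to 5, against 2.44, 0.40, 4.62, 2.62 and 2.32 TPM in WT libraries 1 to 5. S452A library 3 was the single high value, and its difference was -0.21 on the log2 scale (95% interval -1.37 to 0.96). Of 21 ligand genes with a row, 12 were listed at 0 in every library and 7 were above 0 but under 2 TPM everywhere, with 1.36 TPM as the highest value besides Ifnb1 and Ifng. Plasmacytoid dendritic cells are known for high interferon alpha output, and a list of 8 of their markers summed to 53.3 to 105 TPM in S452A and 70.3 to 107 TPM in WT libraries. Of these, 3 passed the filter, with Lair1 as the most abundant at a mean of 67.8 TPM in S452A and 73.4 TPM in WT libraries, Siglech and Ccr9 were under 1 TPM in every library and Klk1 was listed at 0. The sum averaged 77.8 TPM in S452A and 86.0 TPM in WT libraries, so it rested mainly on Lair1. It does not show that plasmacytoid dendritic cells were present, and their part in the ligand levels was not tested.

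Receptors were present at similar levels in both genotypes. Ifnar1 averaged 82.5 ± 14.5 TPM in S452A and 73.1 ± 9.0 TPM in WT libraries, and Ifnar2 averaged 152 ± 30.5 TPM in S452A and 154 ± 17.3 TPM in WT libraries (SD, n = 5 each). Ifngr1 was at 85.0 ± 6.5 TPM in S452A and 80.8 ± 13.3 TPM in WT libraries, and Ifngr2 at 65.9 ± 11.4 TPM in S452A and 68.1 ± 4.8 TPM in WT libraries. Ptpn22 itself was at 18.1 ± 4.8 TPM in S452A and 14.7 ± 3.8 TPM in WT libraries, with an unadjusted limma p of 0.197. A changed codon need not alter the level of the transcript, so this value does not check the genotype labels.

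Other genes of the pathway, kept as lists by role, gave 0 calls after adjustment. Before adjustment, a limma p under 0.05 was found for 1 of 2 ligands tested, 0 of 6 receptors, 0 of 10 kinases and factors, 2 of 14 inducers, 0 of 9 inhibitors and 0 of 60 further interferon-induced genes, of which 30 had a difference above 0 and 30 below. Over all genes the share at this level was 4.74%. Both of these inducers had differences below 0. Tlr3, a sensor of double-stranded RNA, averaged 5.52 ± 1.25 TPM in S452A and 8.43 ± 1.60 TPM in WT libraries, with a difference of -0.54 and an unadjusted limma p of 0.0119. Tmem173 (STING), the adaptor for cytosolic DNA sensing, averaged 53.2 ± 11.4 TPM in S452A and 71.8 ± 15.5 TPM in WT libraries, with a difference of -0.42 and an unadjusted limma p of 0.0335. The smallest unadjusted p of the other lists belonged to Ifnar1 (0.242), Irf3 (0.132), Usp25 (0.106) and Ifi211 (0.0646). The chemokine gene Cxcl10, a target of both interferon types, averaged 1492 ± 326 TPM in S452A and 1363 ± 219 TPM in WT libraries. Cxcl9, which depends more on interferon gamma, averaged 25.1 ± 14.2 TPM in S452A and 23.6 ± 15.4 TPM in WT libraries.

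Across libraries, some members ran with the level of Ifnb1 and others did not. Ifit1 followed it most closely of the 11 members examined against each ligand, which made 22 relations. Over the 10 libraries Pearson's r was 0.94 (permutation p = 4e-05) and Spearman's rho was 0.96 (permutation p = 1e-04). Leaving out S452A library 4 and WT library 1, the libraries farthest from the median of Ifnb1, r was 0.75, and within genotypes it was 0.92 in S452A and 0.90 in WT libraries. Isg15 gave r = 0.83 (permutation p = 0.00283) and rho = 0.84 (permutation p = 0.00396), with r = 0.60 without the same libraries. For Gbp2 the relation was not seen over all libraries (r = 0.17, permutation p = 0.637; rho = 0.19, permutation p = 0.609), and r was -0.62 within S452A and 0.84 within WT libraries. Irf7 likewise gave r = -0.08 (permutation p = 0.824) and rho = 0.15 (permutation p = 0.680). Usp18 did not follow Ifnb1 either, with r = 0.11 (permutation p = 0.744) and rho = 0.36 (permutation p = 0.313). Ifit3 gave r = 0.67 with Ifnb1 (permutation p = 0.0331), or 0.50 without the same 2 libraries. Stat2, Irf1, Irgm1, Socs1 and Igtp gave r = 0.47, 0.46, 0.20, -0.18 and -0.33 with Ifnb1, each with a permutation p of 0.169 or more. Against Ifng, Usp18 gave r = 0.77 (permutation p = 0.00925) and rho = 0.79 (permutation p = 0.00923), with r = 0.52 without S452A libraries 1 and 3. These p-values are unadjusted, and none of the members passed when the relation was fitted and adjusted over all genes.

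A fit over all genes, with genotype and the ligand's level as terms, was added after these data were seen and called 0 of 13929 genes (0%) for Ifnb1 and 0 of 13929 (0%) for Ifng at an adjusted limma p under 0.05. Ifit1 had a slope of 0.76 ± 0.13 (SE) on Ifnb1, with both levels as log2(TPM + 1), and an adjusted limma p of 0.366. That of Isg15 on Ifnb1 was 0.570 and that of Usp18 on Ifng was 0.830. At an unadjusted limma p under 0.05, 15 of 49 members had a positive slope on Ifnb1 and 0 a negative slope, against 4.14% of all genes with a positive slope. These comprised 6 of 10 type I-leaning members, 1 of 6 gamma-leaning members, namely Gbp5, and 8 of 33 others. The median slope was 0.47 in the type I-leaning and 0.07 in the gamma-leaning members. On Ifng, 8 of 49 members had a positive slope at that level and 0 a negative slope, against 2.91% of all genes. These were Oas2 of the type I-leaning class, Irgm1 and Igtp of the gamma-leaning class, and Usp18, Ifitm3, Ifi47, Isg20 and Xaf1 of the other members. Ifng itself was low, from 0.13 TPM in S452A library 1 to 8.91 TPM in S452A library 3. Without these 2 libraries, r with Ifng fell from 0.62 to 0.25 for Irgm1 and from 0.65 to 0.60 for Igtp. Within genotypes it was 0.88 in S452A and 0.065 in WT libraries for Irgm1, and 0.78 and 0.35 for Igtp. The median slope on Ifng was 0.04 in the type I-leaning and 0.09 in the gamma-leaning members. The T cell marker mean moved with several of these genes, with r = 0.82 for Ifitm3 and r = 0.73 for Usp18 as a description over 10 libraries, and its part in the slopes was not tested. Tnf, another product of activated macrophages, was also highest in S452A library 4 (2378 TPM) and lowest in WT library 1 (629 TPM), and its part was not tested.

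**Figure D4:**
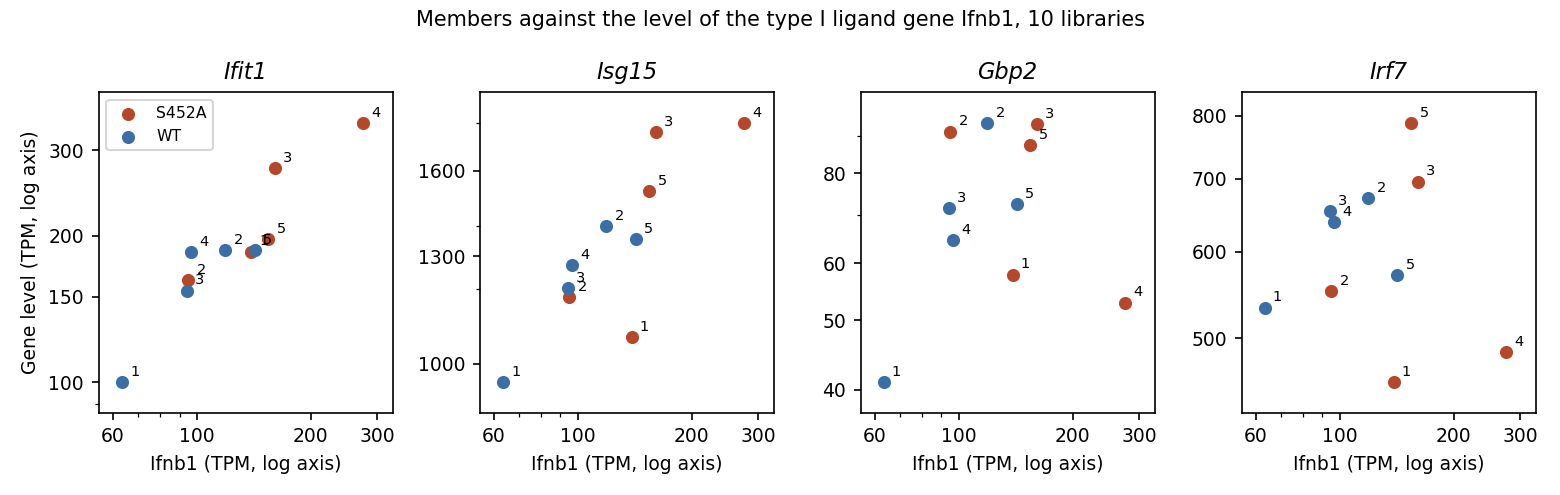
TPM of Ifit1, Isg15, Gbp2 and Irf7 (vertical, log axes) against TPM of Ifnb1 (horizontal, log axis) in 10 libraries, S452A and WT by colour, with mouse numbers at the points. Ifit1 and Isg15 are higher where Ifnb1 is higher (r = 0.94 and 0.83 on log2(TPM + 1)), whereas Gbp2 and Irf7 show no such order and S452A library 4, with the most Ifnb1, is low for both.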

How the data were processed

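Bulk RNA-seq was made from 5 S452A and 5 WT mice with MC38 tumours, using cells that the labels call CD8+ T cells. Per the labels' protocols, the strand-specific libraries used 40 ng of RNA each. The submitters' processing notes name STAR 2.7.9a, RSEM 1.3.0 and GRCm38.p6. The annotation release is not given in the sources used here. TPM values were deposited by the authors, normalised for transcript length and library total. TPM keeps no counts, so the depth is unknown, no counting interval is given, and more of one class of transcript lowers the TPM of the rest.

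The scale was log2(TPM + 1), whose pseudocount of 1 understates the change of low genes. Every gene that reached 1 TPM in 5 or more libraries was fitted with limma 3.58.1 in R 4.3.3 (trend, genotype only, 2-sided), with Benjamini-Hochberg adjustment over all 13930. Single members also had a 2-sided exact permutation test. Libraries labelled with the same mouse number did not deviate together, so numbers were not used as pairs. Fits of each gene on Ifnb1 or Ifng, with genotype, were added after the data were seen. The fits were tested on simulated data.

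The members, classes and pathway lists were chosen with earlier results of these data known. Members named with every value were the leading genes of each class (Ifit1, Ifit3, Isg15, Irf7, Stat2, Irf1, Gbp2, Irgm1, Igtp, Usp18, Socs1) and, per class, the 3 with the highest mean TPM and the 3 with the smallest unadjusted p. Positions came from GENCODE M21. Near-identical transcripts were searched by blastn 2.17.0, with 95% identity or more across 0.8 or more of the shorter transcript. Promoter sequences came from RefSeq on GRCm38.p6. Correlations, figures and permutations used Python 3.11.15, pandas 2.3.3, scipy 1.17.1 and matplotlib 3.10.9. Marker lists of NK cells, neutrophils, B cells, conventional dendritic cells and epithelial tumour cells each summed to at most 87.2 TPM in any library.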

Additional observations from a re-analysis of the deposited data

Results flagged for a closer look

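In 3 of 108 groups of 5 libraries examined, counting members, ligands and class means in each genotype, 1 library stood far from the others of its genotype by Dixon's test. Chance alone gives about 1 in 20, or 5.4 such groups. Ifng was at 8.91 TPM in S452A library 3, with the next highest S452A library at 2.43 TPM. Ifih1, the sensor of long double-stranded RNA, was at 47.7 TPM in WT library 1, with the next lowest WT library at 77.7 TPM. The type I-leaning mean was 6.93 in WT library 1 on the log2(TPM + 1) scale, with the next lowest WT library at 7.26. WT library 1 was also the library with the least Ifnb1, at 63.3 TPM, and its part in these values was not tested.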

How the results depend on the processing

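The count of members called stayed at 0 under every alternative run: pseudocounts of 0.1 and 5, no filter or 1 TPM in all libraries, median log ratio rescaling, quantile normalization, T cell or macrophage marker mean as a covariate, library quality weights, summed copies, a replicate block and leaving out each library. The count of all genes called was 0, in place of 1, when 1 TPM was required in all libraries, a filter that 11688 genes passed. With the mouse number as a replicate block, 1 gene and 0 members were called, and the correlations of same-numbered deviations ran from -0.15 to 0.07. Of 220 values for named members under alternatives other than a left-out library, all kept their direction. The alternative filters and the replicate block leave these differences unchanged by construction, as summed copies do for all named members but Ifit3. Those values therefore do not test the direction. Of 200 values with 1 library left out, 188 kept their direction and 12 turned, none past the threshold. Turned values without S452A library 1 were 0.050 for Usp18, 0.017 for Irf7 and 0.040 for Ifitm3, and Ifitm3 was also 0.022 without S452A library 4 and 0.013 without WT library 3. For Ifit3 the difference was -0.011 when S452A library 4 was left out and -0.012 when library 5 was. Irgm1 was -0.026 without S452A library 3, -0.027 without S452A library 5 and -0.046 without WT library 1. Without WT library 1, Irf1 was -0.12 and Gbp2 was -0.0078. Over all left-out libraries the difference ran from -0.12 to 0.050 for Usp18, -0.18 to 0.017 for Irf7, -0.073 to 0.040 for Ifitm3, -0.012 to 0.21 for Ifit3, -0.046 to 0.16 for Irgm1, -0.12 to 0.20 for Irf1 and -0.0078 to 0.29 for Gbp2. The fits on Ifnb1 and Ifng called 0 members under each alternative added after the data were seen. Depth is unknown, so no detection limit can be set.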
